A study of Mus musculus with 24 samples.

Results

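Keratins are the intermediate filament proteins of epithelia. The 6 keratin genes described here, Krt7, Krt8, Krt18, Krt19, Krt42 and Krt17, are 6 of 17545 genes listed for mouse embryonic stem cells (ESCs) on their way to neural fate. They were chosen by symbol from their course over the days of differentiation: Krt7, Krt8, Krt18 and Krt19 rise, and Krt42 and Krt17 fall. Those changes over days are therefore given as a description, with no test. Tests were kept for what the choice did not use, the differences between Cdc14 genotypes.

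The ESCs came from mouse blastocysts and were wild type, Cdc14a KO, Cdc14b KO or Cdc14ab KO, the last lacking both genes. Cdc14a and Cdc14b encode phosphatases that act on substrates of cyclin-dependent kinases. Each genotype had 2 clones, labelled 1 and 3, so that 8 lines were each sampled at days 0, 2 and 7, which gave 24 libraries in 12 groups of 2. All lines grew on feeder cells with LIF, the cytokine that keeps ESCs undifferentiated, and at day 0 they had been passed over gelatin to remove feeders. They were then moved to N2B27, a serum-free neural medium, with EGF and FGF2, and at day 6 they were plated on laminin without these factors, so day 7 cells of every genotype had lost LIF and the growth factors. The labels do not give the mutation, its position in the genes or the sex of the lines, and a genotype here means 2 lines. Wild-type and Cdc14a KO lines are called Cdc14b-intact below, and Cdc14b KO and Cdc14ab KO lines Cdc14b-null.

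Keratins form filaments only as pairs of a type I and a type II protein. Krt8 (type II) with Krt18 (type I) is the pair of simple, single-layered epithelia and the first to appear in the mouse embryo, in trophectoderm, the outer layer of the blastocyst. Krt7 (type II) and Krt19 (type I) join them in ducts, glands and trophoblast. Krt17 (type I) belongs to hair follicles and to wounded epidermis, and Krt42 (type I) was described in the mouse nail. Neurons and neural progenitors build their filaments from other proteins, such as vimentin, nestin and the neurofilaments.

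The 6 genes lie in the 2 keratin clusters of the mouse genome. In GRCm38 with GENCODE M21, the type II genes and Krt18 lie on chromosome 15, with Krt7 at chr15:101411043-101430313 (plus strand). Krt8 at chr15:101996698-102004482 (minus strand) and Krt18 at chr15:102028180-102032027 (plus strand) are neighbours that point away from each other, 23697 bases apart. The other type I genes lie on chromosome 11, Krt19 at chr11:100140810-100148665. Krt17 at chr11:100256217-100261029 and Krt42 at chr11:100262882-100269871, on the same minus strand, are neighbours 1852 bases apart. Counts were read from transcript ends, and none of the 251 words of 50 bases in the last 300 bases of each of the 6 transcripts occurs in another gene, so related keratins did not share these sequences.

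The promoters are shown around an AT-rich motif because 3 of the 4 found hold the letters TATAA, in genes that rose and in one that fell. Promoters of 4 of the 6 genes were matched in RefSeq (GRCm38.p6), while those of Krt17 and Krt19 were not. Capitals mark TATAA, or ATAAA in Krt7, on the strand of the gene, and the windows are chr15:102004327-102004356 for Krt8, chr15:102028184-102028213 for Krt18, chr15:101412383-101412412 for Krt7 and chr11:100269916-100269945 for Krt42.
Krt8: tggcctcttctttTATAAagggccttcgct
Krt18: cctcccgcggcgaTATAAcaacaggtcgag
Krt7: cccgcatggaggaATAAAaggtcgcagact
Krt42: ccttcagcctggcTATAAagggtagcccag
The start listed with each promoter differs from the GENCODE gene start given above, and the windows of Krt8, Krt18 and Krt7 lie inside the GENCODE spans. Relative to the start listed with the promoter the capitals begin at -1 in Krt8, -19 in Krt18, -7 in Krt7 and 19 in Krt42. TATAA was found in the 300-base promoters of Krt8, Krt18 and Krt42, and in 17.5% of all 32851 promoters searched on the gene's strand. ATAAA, which overlaps it in Krt42 and Krt8, was found in Krt7, Krt8 and Krt42 and in 26% of all. GGGCGG, searched on both strands, was found in Krt7 and in 35.7% of all promoters, and TGANTCA, also on both strands, in none of the 4 and in 7.81% of all. These are matches of letters and not measured binding sites.

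Levels are given as normalized counts, which are reads divided by a size factor for each library. Reads per library ranged from 6422883 to 10856721, and 3 reads were worth 2.18 to 3.80 normalized counts, which limits what can be said of values near 0. Since a transcript gives a read only from its 3′ end, levels of different genes were compared without dividing by length. In 3 libraries (Cdc14ab KO day 0 clone 1, Cdc14b KO day 0 clone 3 and Cdc14a KO day 2 clone 1) over 7% of reads fell on Gm42418, a transcript overlapping ribosomal RNA. Cdc14a was at 4.22 to 25.9 in the lines lacking it and 4.37 to 28.0 in the others, and Cdc14b at 96.7 to 325.3 and 103.5 to 288.3, so 3′ reads do not check the knockouts. Wild-type day 7 clone 3 is called undifferentiated in 1 label and day 7 in the rest. Cdc14ab KO day 7 clone 3 stood apart in its keratins, and values are given with and without it. In bulk RNA, more cells of a type and more RNA per cell cannot be told apart.

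Krt18 and Krt8 had the highest mean levels of the keratins on every day, although Krt42 exceeded Krt8 in all 4 clone 3 libraries of day 0. Krt18 ranged from 337.8 to 1022.3 over the 8 libraries of day 0 (median 550.7), from 578.1 to 2895.0 at day 2 (median 1329.9) and from 2590.0 to 23242.1 at day 7 (median 4164.3). Krt8, its type II partner, ranged from 138.9 to 675.9 at day 0 (median 252.2), 273.1 to 1428.2 at day 2 (median 736.8) and 1282.2 to 9744.7 at day 7 (median 1660.0). For both genes every day 7 library lay above every day 0 library, while days 0 and 2 overlapped. From day 0 to day 7 Krt18 was 4.38- to 44.7-fold higher within a line, with a median of 8.44-fold, and Krt8 2.68- to 50.2-fold, with a median of 6.42-fold. Both highest values come from Cdc14ab KO clone 3, and over the other 7 lines the highest were 16.8-fold for Krt18 and 10.6-fold for Krt8.

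Krt7 and Krt19 began low and were higher at day 7 than at day 2 in 8 of 8 lines. Krt7 ranged from 14.3 to 46.8 at day 0 (median 21.7), 34.4 to 145.9 at day 2 (median 57.7) and 297.1 to 2910.0 at day 7 (median 400.1). It was higher at day 2 than at day 0 in 8 of 8 lines, with overlapping libraries, and its day 7 libraries lay above all of days 0 and 2. Within a line Krt7 was 9.27- to 114.9-fold higher at day 7 than at day 0 (median 19.4-fold), and 40.2-fold at most without Cdc14ab KO clone 3. Krt19 ranged from 22.2 to 133.1 at day 0 (median 32.4), 29.0 to 254.1 at day 2 (median 90.3) and 187.1 to 2038.8 at day 7 (median 365.2). Its day 7 and day 2 libraries overlapped and its day 7 and day 0 libraries did not. Within a line its day 7 level was 3.09- to 92.0-fold that of day 0 (median 8.90-fold), and 14.9-fold at most without Cdc14ab KO clone 3.

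Krt42 and Krt17 were at their highest at day 0 and fell early. Krt42 ranged from 79.6 to 318.7 at day 0 (median 194.1), 24.9 to 55.7 at day 2 (median 36.9) and 8.69 to 15.4 at day 7 (median 11.4). The libraries of the 3 days did not overlap at any step, and the level was lower at each later day in 8 of 8 lines. From day 0 to day 7 it was 5.61- to 28.0-fold lower within a line. Krt17 ranged from 57.6 to 134.2 at day 0 (median 83.3), 0.97 to 11.8 at day 2 (median 8.7) and 0 to 12.2 at day 7 (median 3.7). Days 2 and 7 overlapped, and the level was lower at day 7 than at day 2 in 5 of 8 lines. Several day 2 and day 7 values of Krt17 are worth only a few reads, and in Cdc14b KO day 7 clone 1, with no read, it was at least 19.5-fold lower than in the same line at day 0 against a floor of 3 reads of that library.

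**Figure D1:**
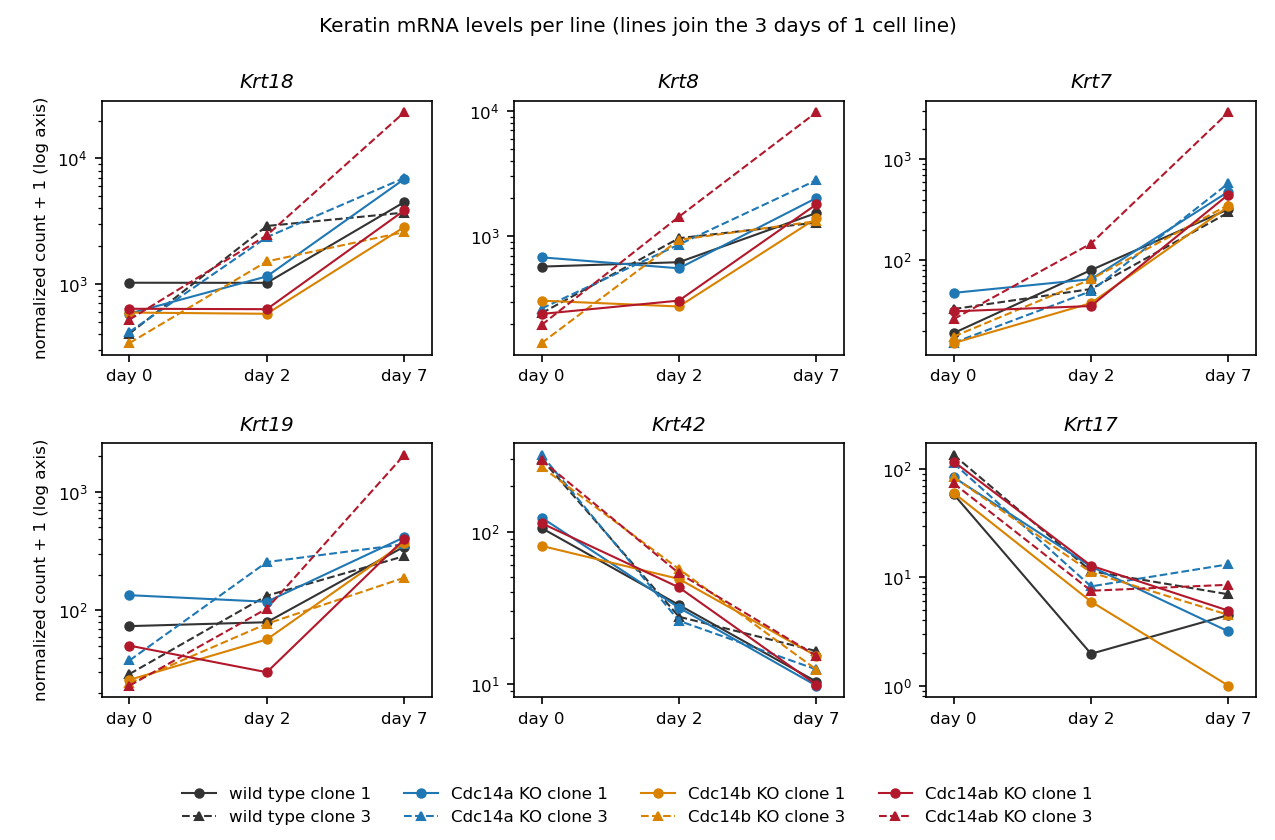
Normalized count + 1 of the 6 keratins (log axis) at days 0, 2 and 7. Each line joins the 3 libraries of 1 cell line, colours give the genotype, circles with solid lines clone 1 and triangles with dashed lines clone 3; Krt18, Krt8, Krt7 and Krt19 are highest at day 7 in Cdc14ab KO clone 3 (23242.1 for Krt18), and Krt42 falls in all 8 lines.

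Between days 0 and 7 all 6 genes thus had libraries that did not overlap, 4 higher and 2 lower. Of all 16158 genes tested, 5.42% had day 7 libraries wholly above day 0 and 3.17% wholly below. Between days 0 and 2 only Krt42 and Krt17 among the 6 did not overlap, both lower, against 1.27% of all genes. Between days 2 and 7 Krt7 lay above (1.89% of all genes) and Krt42 below (2.03%). As the genes were chosen for these changes, nothing is read from the shares. In the fit over all genes, limma called 38.2% of genes between days 0 and 7, and the mean log2 change of the members there was 4.40 for Krt7, 3.33 for Krt19, 3.28 for Krt18, 2.85 for Krt8, -3.82 for Krt42 and -4.21 for Krt17, on the log2(normalized count + 1) scale.

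The order of the mean levels changed with differentiation below Krt18 and Krt8, which stayed highest. At day 0 it was Krt18, Krt8, Krt42, Krt17, Krt19 and Krt7, with means ± SD over 8 libraries of 563.0 ± 213.0, 328.2 ± 190.3, 199.7 ± 103.1, 89.9 ± 28.1, 48.8 ± 38.1 and 24.7 ± 11.3. Neighbours in that order overlapped, and within the clone 3 libraries Krt42 (265.6 to 318.7) stood above Krt8 (138.9 to 263.0). At day 2 Krt19 (105.5 ± 68.5) and Krt7 (65.6 ± 35.7) stood above Krt42 (39.0 ± 12.1) and Krt17 (8.0 ± 3.8), and of the neighbours Krt8 and Krt19, and Krt42 and Krt17, had separate ranges. At day 7 Krt7 (715.4 ± 891.8) and Krt19 (549.0 ± 606.2) followed Krt18 (6814.2 ± 6839.9) and Krt8 (2732.1 ± 2877.3), and stood above Krt42 (11.7 ± 2.7) and Krt17 (4.9 ± 3.7). Of the neighbours at day 7 only Krt19 and Krt42 had separate ranges. Krt8 and Krt7 overlapped there through Cdc14ab KO clone 3, since Krt7 reached 577.8 in the other 7 libraries and Krt8 was at 1282.2 or more.

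Summed over all 15 keratin genes of the table, Krt42 and Krt17 together made up 8.35 to 38.7% of the keratin counts at day 0, 0.892 to 5.05% at day 2 and 0.057 to 0.377% at day 7. Krt8 and Krt18 together made up 52.8 to 81.98% at day 0, 81.3 to 93.1% at day 2 and 83.5 to 90.3% at day 7. The share of Krt7 was 0.934 to 2.66% at day 0 and 4.72 to 7.81% at day 7, with no overlap. The whole sum was 902.3 to 1942 normalized counts at day 0, 1046 to 4256 at day 2 and 4522 to 38058 at day 7. Krt18 exceeded Krt8 in all libraries but Cdc14a KO day 0 clone 1, with ratios of 0.86 to 2.68 at day 0, 1.62 to 3.01 at day 2 and 1.97 to 3.40 at day 7. The median ratio was 1.87, 2.07 and 2.44 in turn.

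**Figure D2:**
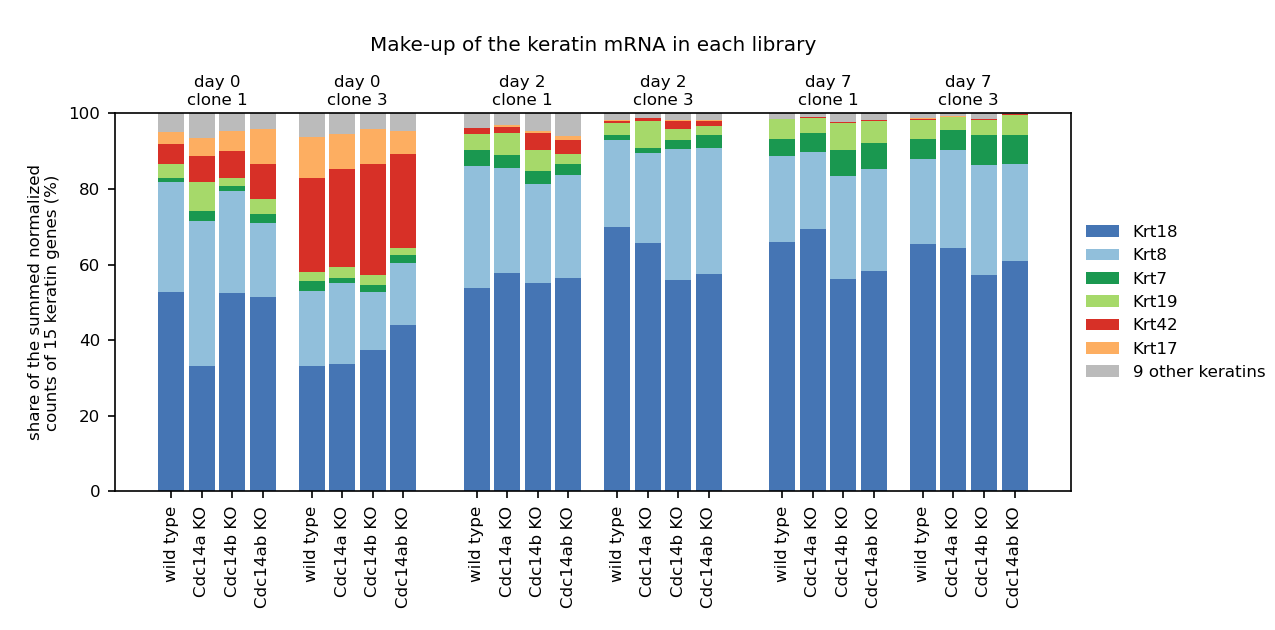
Share (%) of each keratin in the summed normalized counts of 15 keratin genes, 1 bar per library, grouped by day and clone number. Krt42 and Krt17 take 31.0 to 38.7% of the sum in the day 0 libraries of clone 3, 8.35 to 18.6% in those of clone 1, and at most 0.377% at day 7.

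Cdc14ab KO day 7 clone 3 held far more of the 4 rising keratins than any other library. In it Krt18 was at 23242.1 against 2590.0 to 6974.0 in the other 7 day 7 libraries, which is 6.04-fold their median and 3.33-fold their highest. Krt8 was at 9744.7 against 1282.2 to 2795.3 (6.37-fold the median), Krt7 at 2910.0 against 297.1 to 577.8 (8.24-fold) and Krt19 at 2038.8 against 187.1 to 411.6 (5.67-fold). Krt42 (14.3 against 8.69 to 15.4) and Krt17 (7.55 against 0 to 12.2) lay within the range of the others. The other clone of that genotype gave 3847.3 for Krt18, 1791.0 for Krt8, 447.0 for Krt7 and 395.9 for Krt19, all within the range of the other genotypes.

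**Figure D3:**
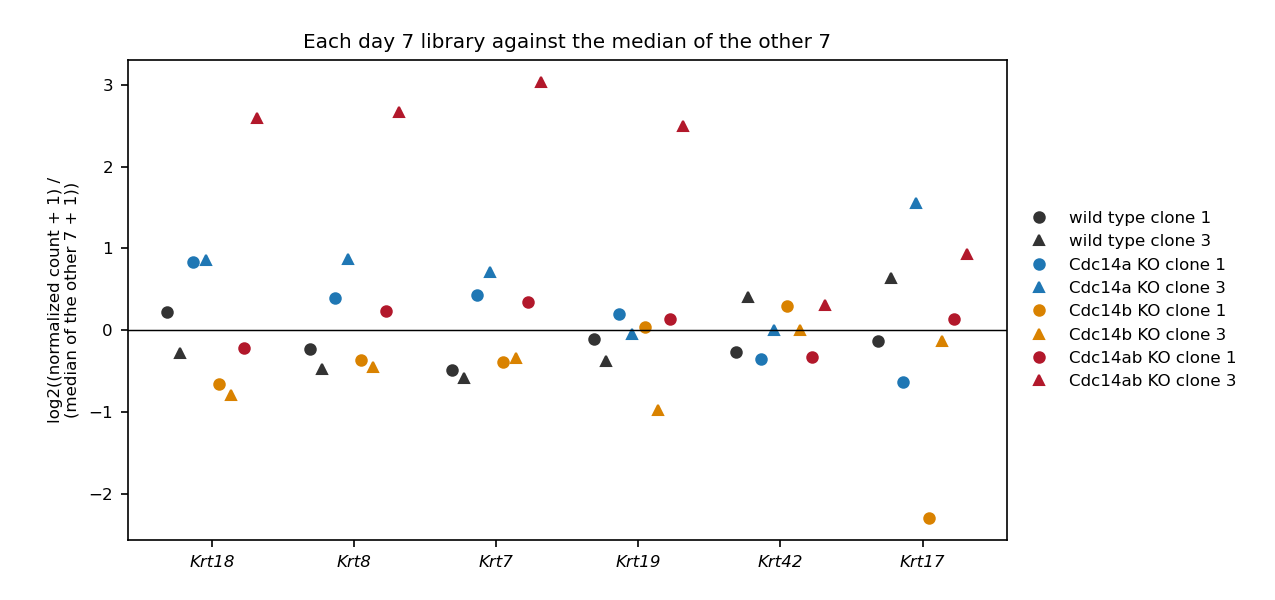
Log2 ratio of each day 7 library to the median of the other 7 libraries, computed on normalized count + 1, for the 6 keratins. Circles are clone 1, triangles clone 3 and colours genotypes; Cdc14ab KO clone 3 stands above all others for Krt18, Krt8, Krt7 and Krt19 and within them for Krt42 and Krt17.

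That library was unusual beyond the keratins. Genes with a mean of at least 10 normalized counts over all 24 libraries numbered 13834. Of these, 615 (4.45%) were over 2-fold above the highest other day 7 library, against 0.0217 to 1.62% in the other 7 libraries. The lists below apply this 2-fold mark to every list gene in the table, whatever its mean, so 4.45% is not their matching share. No matching share over all genes is given, so the counts are a description and no enrichment is read from them. Cdx2 and Gata3 count in both the epithelial regulators and the trophectoderm markers. Among the desmosome and plakin genes, whose products tie keratin filaments to cell junctions, 6 of 13 passed that mark (Dsp, Pkp3, Dsc2, Ppl, Plec and Eppk1). Desmoplakin (Dsp), which anchors keratins at desmosomes, was at 1733 against at most 638.8 elsewhere, and the list summed to 14913.4 against 4997.4 to 7319.0. Of the epithelial regulators 7 of 17 passed (Ovol1, Ovol2, Elf3, Esrp2, Gata3, Cdx2 and Spint1). Of the trophectoderm markers 4 of 11 passed (Cdx2, Gata3, Hand1 and Tead4), and that list summed to 11023.9 against 1901.1 to 6563.5. Tfap2c, which did not pass, gave 9016 of that sum and at most 5393 elsewhere. Cdx2 was at 34.4 against at most 7.32, Gata3, a trophectoderm factor, at 711.8 against at most 342.4, and Hand1, needed for trophoblast giant cells, at 303.8 against at most 82.6. Of the primitive and visceral endoderm markers 6 of 11 passed, although only 8 of the 11 reached the level needed for the limma test. Col4a1 was at 1479 against at most 727.7, Lama1 at 530.5 against at most 165.2, and Pdgfra, Sox17, Gata4 and Cubn at 38.6, 25.2, 18.5 and 12.6. The list sum of 13590.6, of which Sparc gave 11185, lay within the range of the others (6650.6 to 14849.4). Of 7 mesothelium markers 1 passed, Podxl, at 4172 against at most 1163, and the list summed to 4323.4 against 777.7 to 1495.7. No surface ectoderm (10 genes), feeder fibroblast (18) or neuron (12) marker passed. Elf5, Tpbpa and Prl3d1 of the 14 trophectoderm genes listed have no row in the table. Neither do Afp, Ttr, Apoa1, Hnf4a and Sox7 of the 16 endoderm genes listed. The part of such cells in the keratin levels was not tested.

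The choice of genes did not use the Cdc14 genotypes, and none of the 6 keratins differed between them by limma. Over 15 comparisons between genotypes within a day, 0 of 90 tests of these genes had an adjusted p under 0.05, and 6 had an unadjusted p under 0.05. Over all genes the share called between Cdc14b-null and Cdc14b-intact lines was 0.0124% at day 0, 0% at day 2 and 3.75% at day 7 (0.805% higher and 2.95% lower). The last rests on 606 genes, which became 5 when clone 3 of wild type at day 7 was left out. At day 7 it was 1.53% between Cdc14ab KO and wild type (0.0805% higher and 1.45% lower), and in the other comparisons 0%. edgeR also called none of the 6 in any of these comparisons, and DESeq2 called 1 in 1 of them. The labels give clones and not how they were derived. Each SE of a log2 difference and each limma p rests on 1 spread per gene, shared by all 12 groups. They do not measure the spread of the lines compared alone, and the shared spread may be technical.

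At day 7 the Cdc14b-intact lines (wild type clones 1 and 3, then Cdc14a KO clones 1 and 3) had Krt18 at 4481.2, 3699.8, 6840.4 and 6974.0, and the Cdc14b-null lines (Cdc14b KO, then Cdc14ab KO) at 2839.1, 2590.0, 3847.3 and 23242.1. Krt8 was at 1529.0, 1282.2, 2013.7 and 2795.3 in the former and at 1385.6, 1315.1, 1791.0 and 9744.7 in the latter. The groups overlapped for both, and apart from the one high library the Cdc14b-null values did not exceed the Cdc14b-intact range. For Krt18 the Cdc14b KO values (2839.1 and 2590.0) lay below that range, and Cdc14ab KO clone 1 (3847.3) lay within it. Krt7 was at 319.8, 297.1, 477.9 and 577.8 against 340.3, 353.3, 447.0 and 2910.0, and Krt19 at 343.0, 285.1, 411.6 and 359.7 against 370.7, 187.1, 395.9 and 2038.8. These groups overlapped as well. The log2 difference, Cdc14b-null minus Cdc14b-intact, is given with its SE from the shared spread (n = 4 lines each). It was 0.64 ± 0.51 for Krt7, with a limma adjusted p of 0.53. It was 0.38 ± 0.55 for Krt8, -0.067 ± 0.53 for Krt18 and 0.49 ± 0.53 for Krt19, with limma adjusted p of 0.77, 0.96 and 0.67. Without Cdc14ab KO day 7 clone 3 it was -0.032 for Krt7, -0.23 for Krt8, -0.72 for Krt18 and -0.10 for Krt19, with the remaining Cdc14ab KO clone taken to vary like the other groups.

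Krt42 at day 7 was at 9.30, 15.4, 8.69 and 11.4 in the Cdc14b-intact lines and 14.2, 11.4, 8.84 and 14.3 in the Cdc14b-null lines, in the same order. The difference was 0.12 ± 0.44 (limma adjusted p = 0.92). Krt17 was at 3.49, 5.98, 2.17 and 12.2 against 0 to 7.55, a difference of -0.70 ± 0.61 (limma adjusted p = 0.58) between values worth a few reads each. It ran from -1.24 without Cdc14b KO clone 3 and -1.21 without Cdc14a KO clone 1 to -0.18 without Cdc14a KO clone 3 and -0.15 without Cdc14b KO clone 1. Both pairs of groups overlapped.

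Before day 7 the groups were apart in 1 keratin on 1 day. At day 2 Krt42 was at 31.9, 26.5, 30.6 and 24.9 in Cdc14b-intact lines and 47.8, 55.7, 42.0 and 52.3 in Cdc14b-null lines, with no overlap. Of all genes 6.07% had no overlap, higher or lower, and 2.08% lay wholly higher in the null lines. The log2 difference of Krt42 was 0.77 ± 0.44 (limma adjusted p = 0.75). Krt19 at day 2 was at 78.3, 131.8, 117.0 and 254.1 in Cdc14b-intact lines and 55.8, 76.0, 29.1 and 102.3 in Cdc14b-null lines, lower on average with overlapping ranges. The log2 difference was -1.14 ± 0.53, with an unadjusted p of 0.046 and a limma adjusted p of 0.7, and it was -0.69 without Cdc14ab KO clone 1. At day 0 it was -0.97 ± 0.53 for Krt19 (adjusted p = 0.49 in limma) and -0.91 ± 0.55 for Krt8 (adjusted p = 0.53). Without Cdc14a KO clone 1 these were -0.51 and -0.57, and without wild-type clone 1 they were -0.64 and -0.60. The other 4 keratins differed by -0.27 to -0.15 at day 0. Y-linked transcripts also moved with these groups, with the sum of 4 genes at 69.1 to 545.9 in Cdc14b-intact and 4.45 to 49.4 in Cdc14b-null lines at day 0. That sum varied with the clone number too, at 23.8 to 545.9 in clone 1 and 4.45 to 89.8 in clone 3, which overlap. The part of Y-linked transcripts in the keratin differences was not tested.

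**Figure D4:**
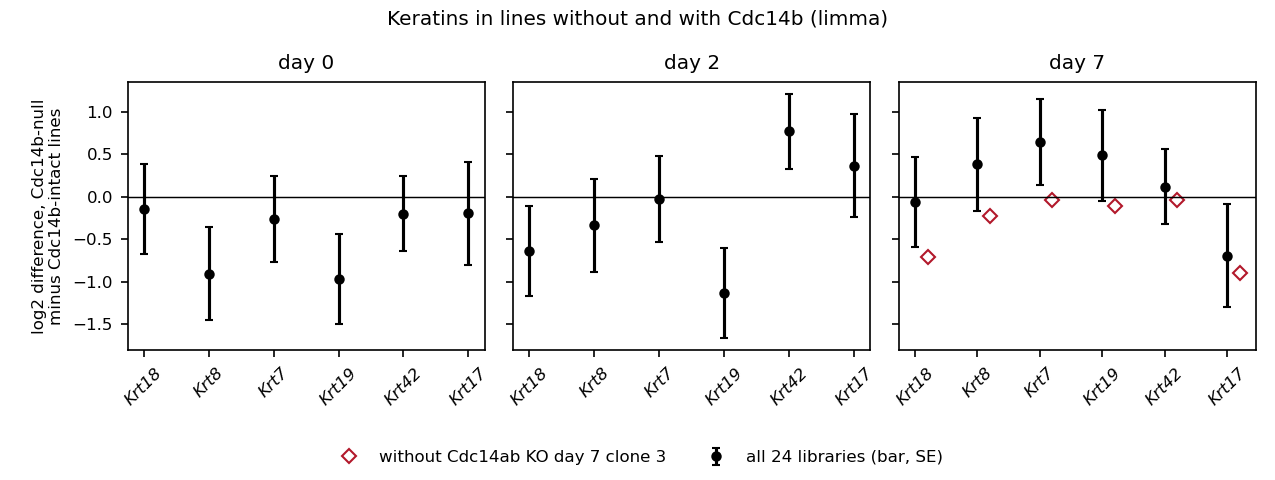
Log2 difference of each keratin between Cdc14b-null and Cdc14b-intact lines at days 0, 2 and 7 in limma. Black points with bars are the estimate and its SE over all 24 libraries, and open red diamonds at day 7 the estimate without Cdc14ab KO clone 3, which moves Krt7 from 0.64 to -0.032.

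The smallest adjusted p among the comparisons between genotypes was that of Krt7 in Cdc14ab KO against wild type at day 7. In Krt7 the 2 Cdc14ab KO clones of day 7 differed by 2.7 in log2. The log2 difference from wild type was 1.88 ± 0.72 (SE from the shared spread, n = 2 clones each), with a limma adjusted p of 0.26. It came to 0.54 without Cdc14ab KO clone 3 and to 3.23 without Cdc14ab KO clone 1, where the limma adjusted p was 0.02 with the high library alone in its group. DESeq2, run on the recovered reads, gave 2.45 with an adjusted p of 0.012. Krt8, Krt18 and Krt19 differed by 1.58 ± 0.77, 1.22 ± 0.75 and 1.52 ± 0.75 in the same comparison (limma adjusted p = 0.42, 0.56 and 0.42). Without the high library they differed by 0.36, -0.082 and 0.34. The response to differentiation was also compared between Cdc14b-null and Cdc14b-intact lines by interaction terms, and none of 18 tests of the keratins passed in limma, with 1 unadjusted p under 0.05. Between days 0 and 7 the largest was Krt19, with a log2 difference of 1.46 ± 0.75 (limma adjusted p = 0.27), in a comparison where limma called 3.26% of all genes. Without the high library that difference was 0.87, with a limma adjusted p of 0.5.

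Within a genotype the 2 clones differed in these keratins. For some of the 6, the clones numbered 3 differed from the clones numbered 1 in a similar way across genotypes at day 0 or day 2. This split was looked at after the values were seen and is given without a test. At day 0 Krt42 was at 104.6, 122.7, 79.6 and 112.6 in clone 1 of wild type, Cdc14a KO, Cdc14b KO and Cdc14ab KO, and at 299.5, 318.7, 265.6 and 294.4 in clone 3. The groups did not overlap, and the log2 difference was 1.37 to 1.73 in 4 of 4 genotypes. Krt18 went the other way, at 581.2 to 1022.3 in clone 1 and 337.8 to 520.2 in clone 3. Krt8 was also lower in clone 3 in 4 of 4 genotypes, with overlapping ranges. Krt7 was higher in clone 3 in 2 of 4 genotypes and Krt17 in 3 of 4, with overlapping ranges. The values of 13.1% of all genes did not overlap between the clones at day 0.

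At day 2 the clones with number 3 were ahead in the simple-epithelial pair. Krt8 was at 617.9, 552.3, 273.1 and 304.4 in clone 1 lines and 961.2, 855.6, 933.3 and 1428.2 in clone 3 lines, in the same order of genotypes, with no overlap. Krt18 was at 578.1 to 1148.9 in clone 1 and 1510.9 to 2895.0 in clone 3, also apart, while 9.16% of all genes did not overlap. Krt7, Krt17 and Krt42 were each higher in clone 3 in 2 of 4 genotypes at day 2. The log2 change from day 0 to day 2 was -0.29 to 0.35 for Krt8 in clone 1 lines and 1.70 to 2.87 in clone 3 lines. For Krt18 it was -0.03 to 0.98 and 2.16 to 2.85, and for Krt19 -0.74 to 1.13 and 1.66 to 2.75. Krt42 changed by -1.97 to -0.72 and -3.63 to -2.23. Its day 2 levels overlapped (30.6 to 47.8 in clone 1, 24.9 to 55.7 in clone 3), so its change repeats the day 0 difference. These 4 of the 6 keratins did not overlap between clone numbers in this early change, against 9.86% of all genes. In the change from day 0 to day 7 only Krt42 did not overlap, at -3.67 to -2.41 and -4.69 to -4.20, against 8.42% of all genes. In the levels at day 7 none of the 6 had separate ranges, against 8.75% of all genes.

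Other lists differed between the clones at day 2 too. Desmosome and plakin genes, 13 of 15 in the table, summed to 4484 to 5006 in clone 1 and 6066 to 6457 in clone 3. Feeder fibroblast markers, 18 of 18, summed to 1572 to 2474 and 4203 to 10209. Sums that did not overlap were also those of surface ectoderm markers (237.2 to 400.7 and 505.1 to 771.1), primitive and visceral endoderm markers (3340 to 4096 and 4289 to 5956) and other intermediate filament genes (7613 to 8698 and 9898 to 11649). Naive pluripotency markers, 12 of 12, ranged from 3205 to 9710 and from 1837 to 3674, which overlap. The part of these in the keratin differences was not tested.

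**Figure D5:**
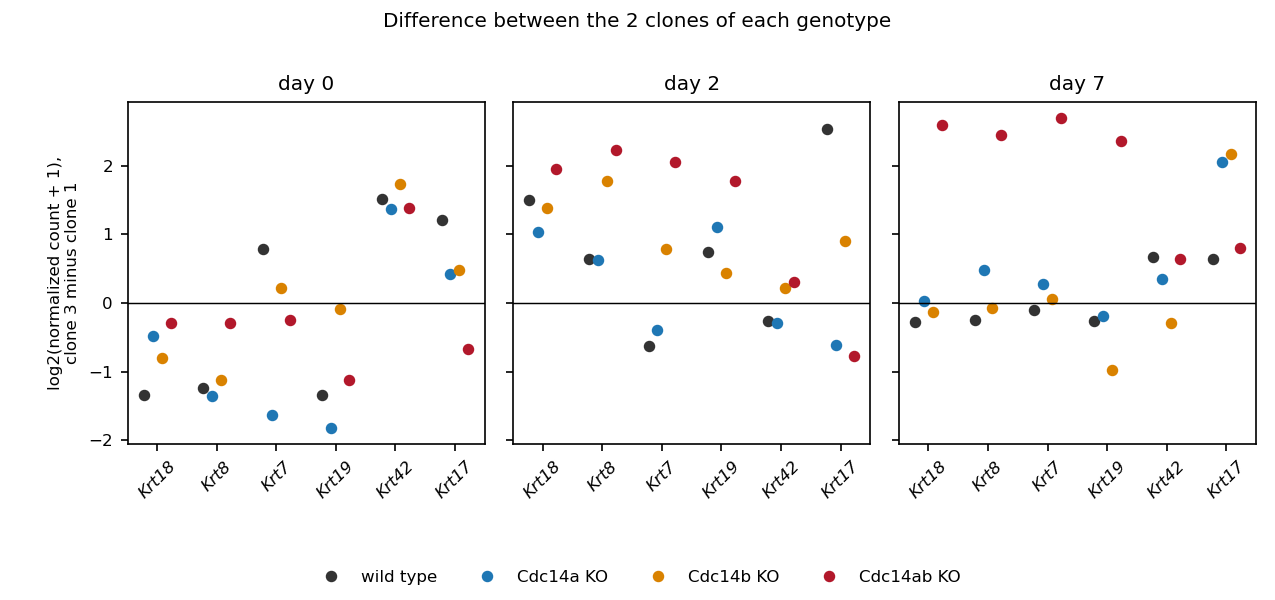
Log2(normalized count + 1) of clone 3 minus clone 1 within each genotype (colours) for the 6 keratins at days 0, 2 and 7. Krt42 is higher in clone 3 in 4 of 4 genotypes at day 0 (1.37 to 1.73), Krt8 and Krt18 are higher in 4 of 4 at day 2, and at day 7 the high points of Krt18, Krt8, Krt7 and Krt19 are Cdc14ab KO.

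The 9 other keratins of the table (Krt9, Krt10, Krt12, Krt14, Krt15, Krt20, Krt28, Krt79 and Krt222) were low, none with a mean of 20 normalized counts over the 24 libraries. At day 7 Krt20 had the highest mean of them, 21.4, and the highest single value on any day was 40.6, of Krt10 at day 0. Between days 0 and 7 limma called 2 higher and 1 lower, against 20.9% and 17.4% of all genes. Krt20, a keratin of gut epithelium, went from 0 to 6.24 at day 0 to 9.62 to 32.4 at day 7 (log2 2.62 ± 0.42, limma adjusted p = 0.00011). Krt15, of basal epidermal cells, rose by 1.53 ± 0.54 (limma adjusted p = 0.031) and Krt222 fell by 1.21 (limma adjusted p = 0.041). These counts were not stable, and edgeR called 1 higher and 0 lower. limma called 0 lower without either clone of wild-type day 0, Cdc14b KO days 0 and 7 or Cdc14ab KO days 0 and 7, or without clone 3 of Cdc14a KO days 0 and 7 or wild-type day 7. It called 1 higher without either clone of wild-type day 7 or Cdc14ab KO day 7. The same held without clone 3 of wild-type day 0, Cdc14a KO days 0 and 7 or Cdc14ab KO day 0, or clone 1 of Cdc14b KO days 0 and 7. Krt14, the basal epidermal partner of Krt5, was at 1.00 to 9.36 at day 0 and 3.04 to 16.8 at day 7.

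Genes that attach keratins to junctions were called in shares near or below those of all genes, 20.9% higher and 17.4% lower. Of 13 desmosome and plakin genes, limma called 2 higher at day 7 than at day 0 (Dsc2 and Dsg2, desmosomal cadherins), 2 lower (Pkp4 and Dst) and 9 neither way, with a median log2 change of 0.30 over the list and 0.03 over all genes. Dsc2 was at 5.56 to 21.8 at day 0 and 21.9 to 172.1 at day 7 (log2 1.94 ± 0.38, limma adjusted p = 0.00056), and Dsg2 changed by 0.78 ± 0.22. limma called 1 lower in place of 2 without any one of wild-type day 0 clone 1, wild-type day 7 clone 3, Cdc14a KO day 0 clone 3, Cdc14a KO day 7 clone 3, Cdc14b KO day 0 clone 3 or Cdc14ab KO day 0 clone 1. Among 15 other intermediate filament genes 4 rose (Des, Sync, Nefm and Vim) and 3 fell (Prph, Ina and Lmnb1), also near those shares. Vimentin (Vim), the filament of mesenchyme and neural progenitors, was at 168.3 to 511.2 at day 0 and 170.4 to 1441 at day 7 (1.38 ± 0.41, limma adjusted p = 0.013), and it was lowest in Cdc14ab KO clone 3.

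Of 17 regulators of epithelial identity limma called 7 lower at day 7 than at day 0 (Klf5, Grhl2, Esrp1, Spint2, Klf4, Ovol1 and Ovol2) and 2 higher (Gata3 and Tfap2a), with a median log2 change of 0.09. Of all genes 17.4% were called lower and 20.9% higher, and the list as a group was not tested. Klf5 and Klf4 are also factors of naive ESCs. Grhl2, which maintains epithelial junction genes, fell by 2.06 (limma adjusted p = 2.7e-05), and Esrp1, a splicing regulator of epithelia, by 1.19 (adjusted p = 8.1e-05). The count of higher genes was 1 without any one of wild-type day 0 clone 1, wild-type day 7 clone 1, Cdc14a KO day 0 clone 3, Cdc14a KO day 7 clone 1 or Cdc14b KO day 0 clone 3.

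Markers of extraembryonic and surface tissues that use these keratins were measured beside them. Of 11 trophectoderm markers limma called 6 higher at day 7 than at day 0 (Gata3, Hand1, Esx1, Plac1, Gata2 and Tead4) and 0 lower, with a median log2 change of 0.89, where 20.9% of all genes were called higher. Gata3 rose by 3.72 ± 0.35 (limma adjusted p = 4.6e-07) and Hand1 by 3.80 ± 0.44. The list summed to 735.4 to 3969 at day 0 (median 3119) and 1901 to 11024 at day 7 (median 3187). The 11024 is Cdc14ab KO clone 3, and without that line the medians were 3095 and 3119. Cdx2, a defining trophectoderm factor, was not called, at 0 to 16.5 at day 0 and 3.49 to 34.4 at day 7. Of 8 tested primitive and visceral endoderm markers 5 rose (Col4a1, Sparc, Dab2, Foxa2 and Gata6) and 0 fell, and the sum over 11 was 1946 to 6390 at day 0 and 6651 to 14849 at day 7. Of 10 surface ectoderm markers 5 rose, Dlx3, Wnt6, Tfap2b, Tfap2a and Krt15, with sums of 204.4 to 411.9 at day 0 and 428.5 to 956 at day 7. That count was 3 without any one of wild-type day 7 clone 1, Cdc14a KO day 0 clone 3 or Cdc14ab KO day 0 clone 3. In the same comparison 9 of 18 feeder fibroblast markers rose and 3 fell, with a median log2 change of 1.25. Of 6 tested mesothelium markers 2 rose and 1 fell, with a median of -0.226. The part of such cells in the keratin levels was not tested.

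Across the 24 libraries Krt8 and Krt18 followed each other most closely of the 6, with Pearson r = 0.97 on the log2 scale. Since all libraries share the days, r was also taken on deviations from the day means, where it was 0.89, and 0.83 without the high library. Krt8 and Krt19 gave 0.83 there, and 0.74 without it. Krt7 and Krt18 gave 0.67, and 0.41 without it. Krt42 and Krt17, neighbours on the chromosome, gave 0.85 over all libraries but 0.16 within days. These values describe 24 libraries and carry no p.

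The genes whose pattern was most like that of each keratin were ranked by r over the 24 libraries, among those with a mean of at least 20 normalized counts. Predicted genes (symbols of Gm and digits, or Rik) were left out of the ranking. For Krt8 they were Krt18, Krt19, Tnfrsf1a, Cdkn1c and Tmprss2 (r = 0.93 to 0.97), and for Krt18 they were Pdlim2, Krt8, Tpm2, Epn3 and Cdkn1c (0.94 to 0.97). Krt7 was closest to Tgm2, Epn3, Cdkn1c, Col4a1 and Col4a2 (0.95 to 0.97), and Krt19 to Krt8, Krt18, Epn3, P4ha2 and Fndc3b (0.92 to 0.95). Krt42 was closest to Eif2a, Zbtb8a, Abcc4, Platr10 and Socs2 (0.90 to 0.94), and Krt17 to Nav2, Ppp4c, Tsix, Hmces and Krt42 (0.85 to 0.94). On deviations from the day means the closest to Krt18 were Krt8, Pdlim2, Dsp, Fam129b and Naaa (0.85 to 0.89), and to Krt19 Dsc2, Krt8, Litaf, Cldn7 and Card10 (0.80 to 0.83). Dsp and Dsc2 are desmosome genes, and r for Dsp and Krt18 was 0.80 without the high library.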

How the data were processed

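The authors deposited a table of normalized read counts, a signal, for 17545 genes in 24 libraries. Per the labels' protocols the libraries were QuantSeq 3′ FWD, stranded. The submitters' processing notes name GRCm38, DESeq2, the counter HTSeq 0.6.1, the aligners TopHat2 2.0.10 and Bowtie 1.0.0, and also SAMtools 0.1.19 and FastQC 0.11.7; the annotation is not given in the sources used here. All values (100%) were whole multiples of 1 step per library, within 0.001, so whole reads were recovered for edgeR and DESeq2.

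Values were taken as log2(normalized count + 1). The 16158 genes that reached 10 normalized counts in 2 or more libraries, all 6 keratins among them, were tested with limma 3.58.1 in R 4.3.3 (12 group means, trend and robust, Benjamini-Hochberg over all genes, adjusted p under 0.05). Clones and changes per line were described in Python 3.11.15. The fit was tested on simulated data. Lines are the same across days, but their deviations correlated at -0.14 to 0.29, and a block for the line moved no count of calls over days by over 1.5 times. The members and lists were chosen with earlier results of these data known. Named genes are the 6 keratins, the 5 genes nearest to each, and other keratins with a mean of 20 or more. Predicted genes were left out of the nearest 5. Up to 4 genes per list were named by adjusted p. Further list genes and keratins were named after their values were seen. Alternatives were pseudocounts 0.25 and 5, no filter or a filter of 50, TMM, edgeR 4.0.16, DESeq2 1.42.0, only the groups compared, a replicate block, and leaving out libraries.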

Additional observations from a re-analysis of the deposited data

Results flagged for a closer look

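In 36 groups of 4 lines, each of 1 keratin on 1 day, 1 library lay far from the other 3 in 5 cases. The mark used is one that about 1 in 20 groups pass by chance if groups are independent. These groups are not, since the keratins were read from the same libraries and varied together. No excess over chance is read from these 5 cases. In 4 of them the library was Cdc14ab KO day 7 clone 3 among the Cdc14b-null lines: Krt18 at 23242.1 (next 3847.3), Krt8 at 9744.7 (next 1791.0), Krt7 at 2910.0 (next 447.0) and Krt19 at 2038.8 (next 395.9). The fifth was Krt19 at day 0 in Cdc14ab KO clone 1, at 49.4 normalized counts (next 24.9), a library with 8.7% of its reads on Gm42418.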

How the results depend on the processing

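Over 35 alternatives, the count of keratins called between genotypes or in interactions was 0 of 6 in every comparison but 2. Between Cdc14ab KO and wild type at day 7 it was 1 (Krt7) with DESeq2, and 0 to 1 when leaving out libraries, 1 being without Cdc14ab KO day 7 clone 1. Between Cdc14ab KO and Cdc14b KO at day 7 it was 0 to 1, with Krt7 at 3.06 (limma adjusted p = 0.046) without that same library. The day 7 difference between Cdc14b-null and Cdc14b-intact lines, leaving out 1 library each, ranged from -0.032 to 1.32 for Krt7, -0.229 to 0.993 for Krt8, -0.715 to 0.582 for Krt18, -0.103 to 1.08 for Krt19, -0.047 to 0.287 for Krt42 and -1.24 to -0.155 for Krt17. The lowest came without Cdc14ab KO clone 3 and the highest without Cdc14ab KO clone 1, except that Krt42 gave them without wild-type clones 1 and 3, and Krt17 without Cdc14b KO clones 3 and 1. Krt42 was also at -0.039 without Cdc14ab KO clone 3, and Krt18 at 0.003 without wild-type clone 1, 0.198 with edgeR and 0.190 with DESeq2. Krt18 between Cdc14ab KO and wild type ranged from -0.082 to 2.51. The cause was not tested. All 6 changes from day 0 to day 7 kept their direction.

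A replicate block was fitted, with the line for changes over days and interactions and the clone number between genotypes. Clone differences of pairs of genotypes correlated at 0.11 to 0.639 at day 0, -0.19 to 0.728 at day 2 and 0.185 to 0.604 at day 7, which does not establish a pairing. With the replicate block 0 of 6 keratins were called between genotypes, as without it, and the genes called at day 7 between Cdc14b-null and Cdc14b-intact lines went from 606 to 920. With the clone number as a term at each day, added after seeing the data, these were 0 of 6 and 1350. That comparison had 5 genes called without clone 3 of wild type at day 7 and 1423 with DESeq2. The counts ran from 0 (only the groups compared) to 650 (DESeq2) between Cdc14ab KO and wild type at day 7. Without Cdc14ab KO day 0 clone 3 they were 938 in place of 2 at day 0 and 1869 in place of 527 for the interaction between days 0 and 7, which gave 0 without the 3 libraries rich in Gm42418. Krt17 after day 0 and the 9 other keratins are limited by depth.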
